A study of Mus musculus with 4 samples.

Results

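The transcripts examined here are those of 10 genes for transcription factors that set or oppose helper T cell fates: Gata3, Tbx21, Eomes, Bcl6, Prdm1, Runx1, Runx3, Hlx, Nfil3 and Epas1. They were chosen by gene symbol, and all 10 were found among the 25509 genes of the deposited table. RNA was sequenced from mouse splenic naive CD4+ T cells, sorted as CD25-negative, CD62L-high and CD44-low, after 72 h with antibodies to CD3 and CD28, TGF-beta, IL-4 and TL1A, a TNF-family cytokine. These are conditions for TH9 cells, which make interleukin 9. There were 2 libraries of Batf3-/- cells, which lack the AP-1 family factor BATF3, and 2 of wild-type (WT) cells, numbered as replicates 1 and 2 within each genotype. Both genotypes received the same cytokines, and the labels give neither the exons lost in the Batf3 allele nor the age, sex or background of the mice. No untreated culture and no culture of another helper subset was analysed here, so levels are compared among genes and between genotypes only.

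Naive CD4+ T cells take up one of several effector states, and each state is stabilised by a factor that also restrains its rivals. GATA3 directs the TH2 state and is induced by IL-4, T-bet (Tbx21) directs the TH1 state, and BCL6 directs follicular helper cells and is opposed by BLIMP-1 (Prdm1). EOMES, RUNX3 and HLX act beside T-bet in TH1 and cytotoxic cells, RUNX1 acts in T cell development and in regulatory T cells, NFIL3 is a basic leucine zipper repressor needed for innate lymphoid cells, and EPAS1 (HIF-2 alpha) is an oxygen-regulated factor. TH9 cultures receive both IL-4 and TGF-beta, and GATA3 is known to contribute to this state.

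The RefSeq promoter table (GRCm38.p6) held 12 start-site windows for 9 of the genes and none for Epas1, and the 250 bases upstream of each start were read. These windows are shown because the genes differed widely in level and in CpG content. Nfil3, the most CpG-rich, and Eomes, the least so among genes with 1 window, are printed with every CpG in capitals. The Prdm1 window is printed with its TGANTCA match in capitals. TGANTCA is a loose form of the AP-1 core that allows any base at the centre, where the usual core has G or C.
Nfil3 (chr13:52981040-52981289, minus strand): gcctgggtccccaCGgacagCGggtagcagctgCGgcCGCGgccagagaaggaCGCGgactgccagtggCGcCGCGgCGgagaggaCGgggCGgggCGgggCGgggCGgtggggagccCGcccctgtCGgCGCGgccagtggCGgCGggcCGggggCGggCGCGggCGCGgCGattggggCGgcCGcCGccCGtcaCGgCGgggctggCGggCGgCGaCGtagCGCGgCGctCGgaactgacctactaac
Eomes (chr9:118477939-118478188, plus strand): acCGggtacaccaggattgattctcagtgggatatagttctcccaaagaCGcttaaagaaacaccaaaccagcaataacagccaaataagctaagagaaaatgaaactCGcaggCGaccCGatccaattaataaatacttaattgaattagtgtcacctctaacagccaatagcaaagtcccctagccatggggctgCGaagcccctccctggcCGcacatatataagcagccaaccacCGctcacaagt
Prdm1 (chr10:44458749-44458998, minus strand): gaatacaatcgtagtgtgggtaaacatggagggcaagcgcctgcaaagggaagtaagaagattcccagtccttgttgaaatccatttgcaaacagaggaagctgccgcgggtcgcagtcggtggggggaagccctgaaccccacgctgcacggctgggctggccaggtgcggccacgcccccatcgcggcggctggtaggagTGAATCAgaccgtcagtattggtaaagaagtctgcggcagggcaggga
The Nfil3 window held 43 CpGs and the Eomes window 8, against a median of 6 over 32851 promoter windows. Runx3, Runx1 and Bcl6 have a pair of windows each, with 38 and 8 CpGs for Runx3, 27 and 2 for Runx1, and 21 and 13 for Bcl6. Gata3 held 19, Tbx21 16, Prdm1 15 and Hlx 11. Abundant genes thus held both the richest window (Nfil3) and the poorest (Runx1), and the CpG count did not order the genes by level. The pattern TGANTCA, searched on both strands, was found in 1 of the 12 windows, that of Prdm1 at position -48, and in 6.75% of all windows. Other patterns were searched too. TGTGGT was found in 1 window (Runx3) and ACGTG in 3 (Bcl6 and Runx1), against 14.0% and 16.6% of all windows. AGATAA, TTATGTAA and AGGTGTGA were found in 0 of the 12, against 9.99%, 0.819% and 1.12% of all windows. The Prdm1 match, TGAATCA, has A at the centre and so is not the usual AP-1 core, and binding was not tested.

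The libraries held 31098059 and 15624874 estimated counts in Batf3-/- replicates 1 and 2, and 23754946 and 27285811 in WT replicates 1 and 2. Batf3 itself (chromosome 1) had 17 and 8 counts in Batf3-/- cells, against 1439 and 1661 in WT cells, so all libraries matched their genotype labels. All 10 T cell markers listed were present, with summed levels of 2966 and 3036 CPM in Batf3-/- libraries and 2992 and 2762 CPM in WT libraries, where CPM is the library-size-scaled count (TMM). The natural killer cell genes Ncr1 and Klrb1c and the B cell gene Ms4a1 were at 0 in all 4 libraries. The 8 B cell markers together reached 10.48 and 12.3 CPM in Batf3-/- libraries and 13.3 and 10.2 CPM in WT libraries, nearly all from Cd79b, a B cell receptor subunit gene, at 9.97 and 12.2 CPM in Batf3-/- libraries and 13.1 and 9.62 CPM in WT libraries. Sex-linked RNA differed between the replicate numbers: Xist stood at 0.0944 CPM in replicate 1 and 144 CPM in replicate 2 of Batf3-/- cells, and at 0.214 and 166 CPM in replicates 1 and 2 of WT cells. Y-linked RNA was present in all libraries, replicate 2 included, with 4 genes summing to 243 and 182 CPM in Batf3-/- libraries and to 344 and 146 CPM in WT libraries. The titles give the libraries of 1 replicate number a common prefix without saying what it stands for, so changes are also given within each number. Nothing in the labels says that replicates came from separate mice. By Xist, replicates 1 and 2 differed in sex composition in both genotypes, so they were not repeat libraries of the same cells. How many mice each library stands for is not known, and the p-values reflect no more than the variation among these libraries. In bulk RNA, fewer expressing cells and less RNA per cell cannot be told apart.

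Gata3, Runx3, Nfil3 and Runx1 were abundant, Epas1, Tbx21 and Bcl6 were low, and Eomes, Prdm1 and Hlx were near the detection limit. The 4 abundant genes took 97.2% and 97.6% of the counts of all 10 genes in Batf3-/- libraries and 97.7% and 96.6% in WT libraries. Counts are compared between genes per kilobase of exon (union of annotated exons, GENCODE M21), as CPM per kb. On this scale Nfil3 averaged 70.1 ± 1.28 in Batf3-/- cells and 58.0 ± 0.825 in WT cells (SD, n = 2 each, as for all means below). Gata3 followed at 62.3 ± 7.74 and 51.1 ± 7.56 CPM per kb, and Runx3 at 39.4 ± 5.38 and 34.0 ± 2.21 CPM per kb, in Batf3-/- and WT cells. Each of these neighbours was separated in both genotypes, every library of the higher gene lying above every library of the next. Nfil3 lay above 95.2% to 96.3% of the 16095 genes with a count and an annotated length, and Gata3 above 93.7% to 96.0%. Runx1 stood at 11.3 ± 0.912 CPM per kb in Batf3-/- cells and 10.4 ± 1.99 in WT cells, and was again separated from the genes above and below it.

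The leading place depended on the gene length used. Per kilobase of the longest annotated transcript, or of the median coding transcript, Gata3 had the highest mean in both genotypes. With the longest transcript Gata3 and Nfil3 overlapped in both genotypes, and Nfil3 was still the higher in Batf3-/- replicate 2 and WT replicate 1. With the median coding length Gata3 averaged 127 CPM per kb in Batf3-/- cells and 104 in WT cells. In proportion Runx1 moved most, to 68.7 CPM per kb in Batf3-/- cells and 62.9 in WT cells, because its exon union of 12025 bases is far longer than its median coding transcript of 1985 bases. Runx3 then overlapped with both Runx1 and Nfil3 in both genotypes, and in WT cells Nfil3 had the lowest mean of the 4 abundant genes. The division into 4 abundant and 6 low genes was the same under the 3 lengths.

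**Figure D1:**
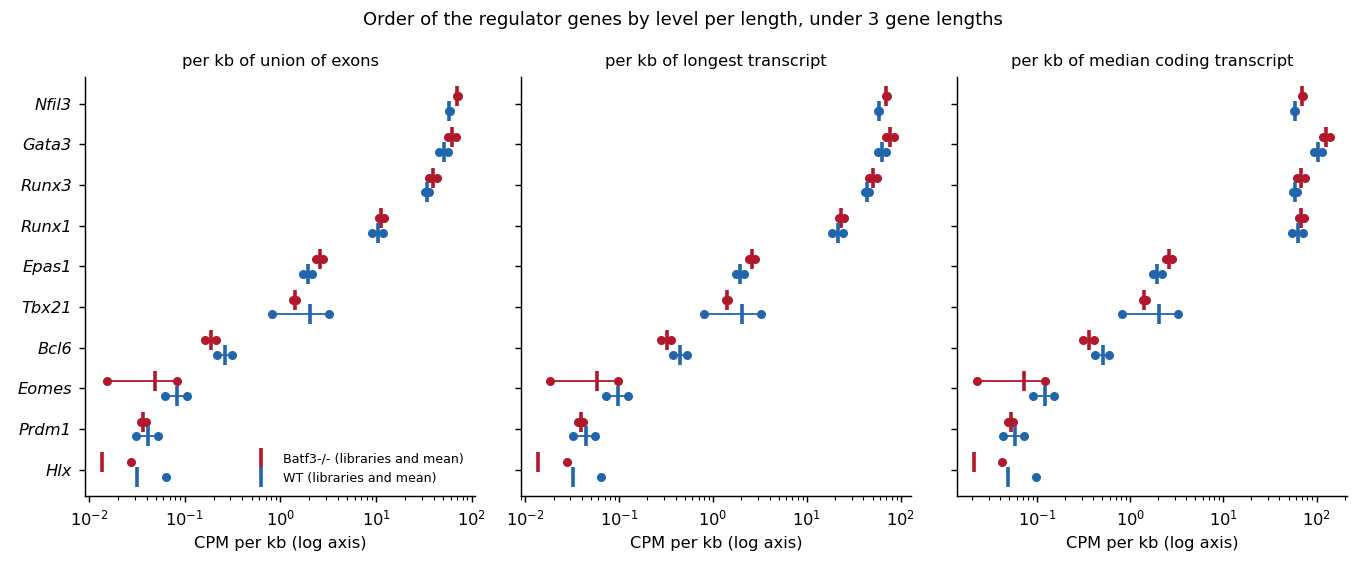
Levels of the 10 genes as CPM per kb on log axes, with gene length taken as the union of exons, the longest transcript or the median coding transcript; dots are libraries, bars are means of 2 libraries (a library at 0 counts has no dot but enters the mean), Batf3-/- above WT. Nfil3, Gata3, Runx3 and Runx1 lie to the right of all other genes in each panel, and Nfil3 has the highest mean with the union of exons and Gata3 with the other lengths, overlapping Nfil3 where the longest transcript is used.

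Below them, Epas1 stood at 2.57 ± 0.266 CPM per kb in Batf3-/- cells and 1.92 ± 0.293 in WT cells. Tbx21 stood at 1.41 ± 0.0631 and 2.03 ± 1.73 CPM per kb in Batf3-/- and WT cells. These neighbours were separated in Batf3-/- cells, with Epas1 higher, and overlapped in WT cells. Bcl6, at 0.188 ± 0.0334 CPM per kb in Batf3-/- cells and 0.264 ± 0.0654 in WT cells, lay below both and above the last 3 genes. Eomes and Prdm1 overlapped in Batf3-/- cells, and Prdm1 and Hlx overlapped in WT cells.

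**Figure D2:**
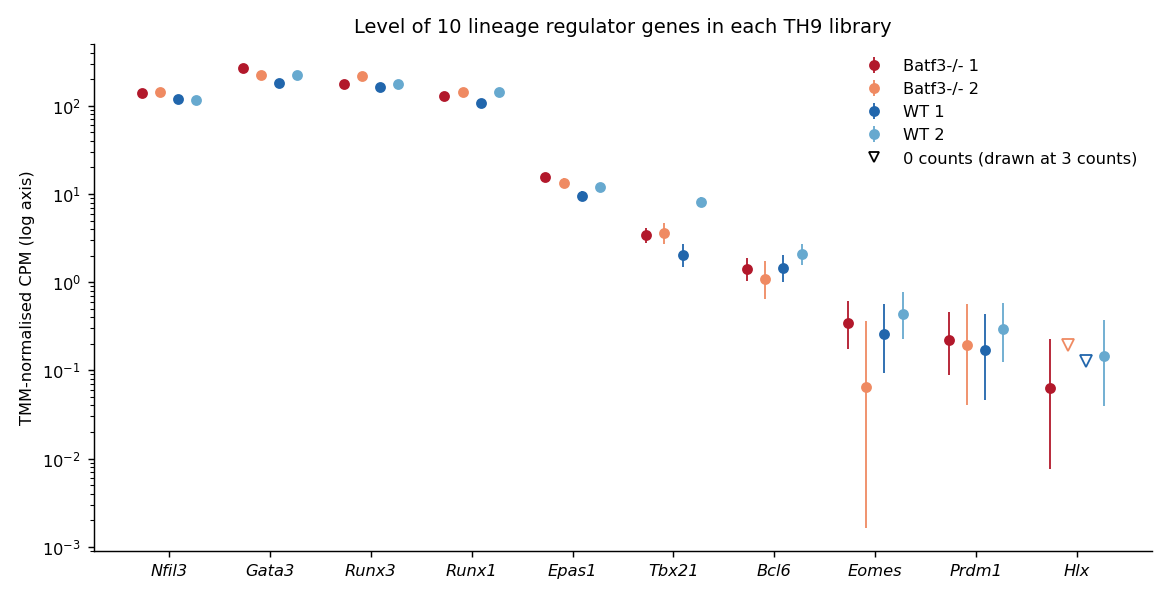
TMM-normalised CPM (log axis, not per length) of each gene in each library, Batf3-/- left of WT; lines are exact 95% Poisson intervals, which cover counting error only, and open triangles mark libraries with 0 counts, drawn at the floor of 3 counts. Tbx21 in WT replicate 2, at 8.09 CPM, lies apart from the other 3 libraries.

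The series title places BATF3 in TH9 differentiation, and Batf3-/- cells were compared with WT cells for each regulator. None of the 10 genes was called: 7 had enough counts to be tested, and 0 of these 7 passed the threshold of an adjusted p of 0.05 in edgeR's quasi-likelihood test. Over all 12135 tested genes 0.132% passed, 0.0824% as higher and 0.0494% as lower in Batf3-/- cells. At an unadjusted p under 0.05 the count was again 0 of 7, against 4.8% of all tested genes, and DESeq2 and limma-voom also called 0 of the 7. The fitted change was positive for 5 genes, as for 48.4% of all tested genes, and negative for Tbx21 and Bcl6, with a median log2 fold change of 0.21 over the 7, against -0.01 over all tested genes. Fold changes run Batf3-/- over WT throughout.

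Gata3 (chromosome 2, 9857078 to 9890034, GRCm38), the TH2 regulator, had 269 and 226 CPM in Batf3-/- replicates 1 and 2, against 182 and 224 CPM in WT replicates 1 and 2. The genotypes did not overlap, but Batf3-/- replicate 2 and WT replicate 2 were nearly level and WT replicate 1 was the low library. The edgeR fit gave a log2 change of 0.29 (SE 0.196, adjusted p = 0.958), with a 95% interval of -0.12 to 0.70. Replicate 1 alone gave a log2 ratio of 0.57, and replicate 2 alone one of 0.01. A Gata3 increase of up to 1.62-fold, or a slight decrease to 0.918 of WT, was therefore within the interval. Among genes overlapping Gata3, 4930412O13Rik on the opposite strand had 7.48 and 8 counts in Batf3-/- libraries and 4 in each WT library. On the same strand, 9230102O04Rik had 9.52 and 0 counts in Batf3-/- libraries and 0 and 3 in WT libraries. Both had few counts beside the Gata3 counts of 3495 or more.

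Nfil3 (chromosome 13, 52967209 to 52981073) had 140 and 144 CPM in Batf3-/- libraries, against 119 and 116 CPM in WT libraries. Its libraries were the most even of the 7 genes, and both Batf3-/- libraries lay above both WT libraries. Its fitted log2 fold change in edgeR was 0.27 (SE 0.182, adjusted p = 0.958), and the log2 ratios were 0.24 within replicate 1 and 0.31 within replicate 2. Epas1 (chromosome 17, 86753700 to 86833410) had 15.4 and 13.3 CPM in Batf3-/- libraries, against 9.60 and 11.9 CPM in WT libraries. These groups did not overlap either, and Epas1 had the smallest unadjusted p of the 10 genes, 0.0925 (log2 fold change 0.42, SE 0.237, adjusted p = 0.958, edgeR). The ratio within replicate 1 was 0.68 on the log2 scale, and that within replicate 2 was 0.16.

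Runx3 (chromosome 4, 135120652 to 135177990), which with T-bet activates Ifng and silences Il4 in TH1 cells, had 178 and 216 CPM in Batf3-/- libraries, against 162 and 178 CPM in WT libraries. Batf3-/- replicate 1 and WT replicate 2 were almost equal, so the groups were only just apart. The edgeR fit gave a log2 change of 0.21 (SE 0.190, adjusted p = 0.958), with log2 ratios of 0.14 within replicate 1 and 0.28 within replicate 2. With GC content corrected for, the Runx3 value was 0.04 and that of Nfil3 0.15. Runx1 (chromosome 16, 92601466 to 92826149) had 129 and 144 CPM in Batf3-/- libraries, against 108 and 142 CPM in WT libraries, and these groups overlapped. In edgeR the fitted log2 change was 0.13 (SE 0.195, adjusted p = 0.963), against 0.21 with GC content corrected for and -0.06 without WT replicate 1. The RUNX proteins bind DNA with the shared partner CBF-beta, whose gene Cbfb had 128 and 129 CPM in Batf3-/- libraries and 137 and 136 CPM in WT libraries (log2 fold change -0.09, SE 0.182). The Runx3 to Runx1 ratio per kb of exon was 3.33 and 3.61 in Batf3-/- libraries and 3.61 and 3.02 in WT libraries. With the median coding length it was 0.958 and 1.04 in Batf3-/- libraries and 1.04 and 0.868 in WT libraries, so which of the pair was higher depended on the length.

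Tbx21 (chromosome 11, 97098071 to 97115331) had 108 and 56 counts in Batf3-/- replicates 1 and 2, against 47 and 222 counts in WT replicates 1 and 2. These are 3.40 and 3.62 CPM in Batf3-/- libraries and 2.01 and 8.09 CPM in WT libraries. The Batf3-/- libraries were close to each other and lay between the WT libraries, which differed 4.02-fold (95% counting interval 2.92 to 5.63). Its fitted log2 fold change in edgeR was -0.55 (SE 0.567, adjusted p = 0.958), with a 95% interval of -1.87 to 0.77. Within replicate 1 Tbx21 was 1.69-fold higher in the Batf3-/- library (95% counting interval 1.19 to 2.43), and within replicate 2 it stood at 0.447 of WT (0.328 to 0.602). Both intervals compare single libraries, cover counting error only and point in opposite directions. Opposite signs within the replicate numbers were seen in 1 of the 7 genes, and in 44.8% of all tested genes.

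The WT libraries decided the direction of Tbx21. Without WT replicate 1 its log2 fold change was -1.21 (adjusted p = 0.0373, edgeR), which passed the threshold, as did 0.61% of tested genes. Without WT replicate 2 it was 0.81 (adjusted p = 0.227, edgeR). In each case 1 WT library was left and was assumed to vary like the Batf3-/- pair. WT replicate 2 was also the highest of the 4 libraries in Ifng, the T-bet target that encodes interferon gamma, at 1 and 0 counts in Batf3-/- libraries and 3 and 10 counts in WT libraries. Cxcr3, a chemokine receptor gene activated by T-bet, had 20 and 4 counts in Batf3-/- libraries and 6 and 17 in WT libraries. Both genes were named after their values were seen and are too low to rank libraries firmly. Of the 17 tested TH1 and cytotoxic genes, WT replicate 2 was the highest library for 6 and the lowest for 4, namely Ccl5, Nkg7, Gzmb and Fasl. The CD8 T cell markers Cd8a and Cd8b1 summed to 7.42 and 7.30 CPM in Batf3-/- libraries and 9.08 and 8.49 CPM in WT libraries. Nearly all of this sum was Cd8b1, while Cd8a had 3 and 1 counts in Batf3-/- libraries and 4 and 5 in WT libraries. The 2 markers thus disagreed, and the sum does not measure CD8 T cells. Of 10 natural killer and innate lymphoid markers, 4 (Klrb1c, Ncr1, Klra1 and Klra8) were at 0 throughout. The list summed to 2.64 and 5.30 CPM in Batf3-/- libraries and to 6.0 and 3.32 CPM in WT libraries. Most of this came from Kit, a receptor gene not limited to these cells, at 1.73 and 4.59 CPM in Batf3-/- libraries and 4.37 and 2.22 CPM in WT libraries. The part of any of these genes or cells in the Tbx21 values was not tested.

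**Figure D3:**
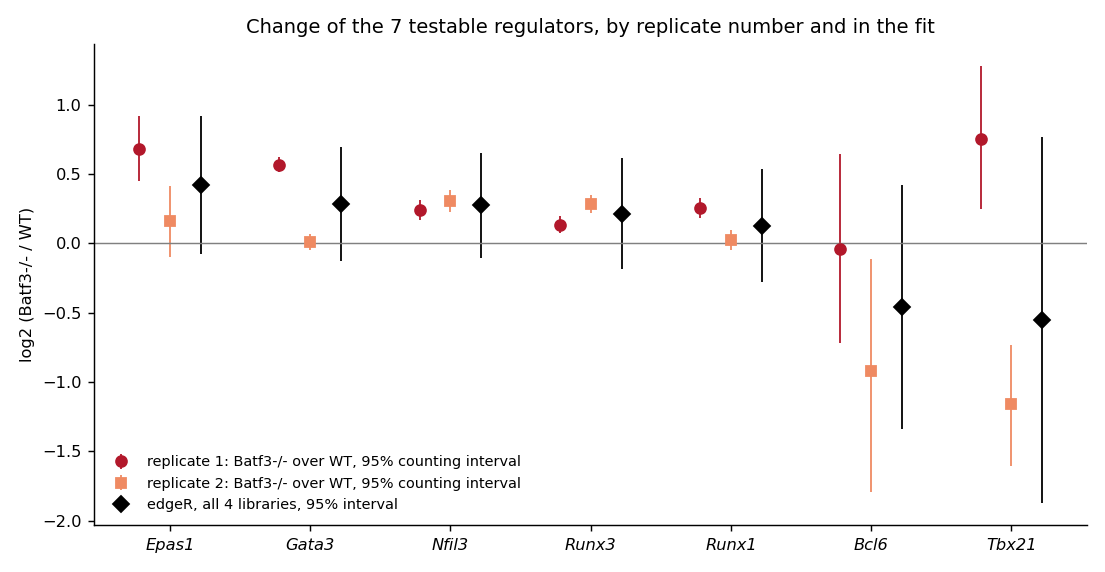
Log2 ratio of Batf3-/- over WT for the 7 testable genes within replicate 1 and replicate 2, with 95% counting intervals, and the edgeR log2 fold change over all 4 libraries with its 95% interval. All 7 edgeR intervals include 0, and for Tbx21 the counting intervals lie above 0 in replicate 1 and below 0 in replicate 2.

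Bcl6 (chromosome 16, 23965052 to 23988852) had 45 and 17 counts in Batf3-/- libraries, against 34 and 57 counts in WT libraries. Scaled for depth these are 1.42 and 1.10 CPM in Batf3-/- libraries and 1.46 and 2.08 CPM in WT libraries. Both Batf3-/- libraries lay below both WT libraries, but Batf3-/- replicate 1 and WT replicate 1 were nearly equal. The edgeR fit gave a log2 change of -0.46 (SE 0.422, adjusted p = 0.958), with log2 ratios of -0.04 within replicate 1 and -0.91 within replicate 2. At this depth a fall to 0.394 of WT or a rise to 1.34-fold was within the 95% interval.

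Across the 7 testable genes, the libraries of the genotypes did not overlap for 5, with Batf3-/- higher for Gata3, Nfil3, Runx3 and Epas1 and lower for Bcl6. Over all tested genes the libraries were separated for 33.8%, with Batf3-/- higher for 18.2% and lower for 15.6%. Gata3, Nfil3, Runx3, Runx1 and Epas1 were higher in Batf3-/- cells within both replicate numbers, a pattern of 27.1% of all tested genes. Within replicate 2, counting intervals of the fold included no change for Gata3 (0.965 to 1.05), Runx1 (0.965 to 1.07) and Epas1 (0.934 to 1.33). Among these genes, only the intervals of Nfil3 and Runx3 lay above no change within both replicate numbers. The Runx1 log2 ratios were 0.25 within replicate 1 and 0.02 within replicate 2. The median log2 ratio of the 7 genes was 0.25 within replicate 1 and 0.02 within replicate 2, against -0.01 and 0.00 for all tested genes. Leaving out single libraries moved the log2 fold change of Gata3 between 0.14 and 0.46, of Epas1 between 0.28 and 0.60, of Runx3 between 0.07 and 0.35 and of Bcl6 between -0.69 and -0.15. Gata3 and Epas1 were lowest without WT replicate 1 and highest without WT replicate 2, and Nfil3 ranged between 0.26 and 0.29. No test was made of the shares, because the genes were chosen with earlier results known.

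Eomes (chromosome 9, 118478212 to 118486132), the T-box paralog of T-bet, had 11 and 1 counts in Batf3-/- libraries and 6 and 12 in WT libraries. Prdm1 (chromosome 10, 44437177 to 44528501), the antagonist of Bcl6, had 7 and 3 counts in Batf3-/- libraries and 4 and 8 in WT libraries. Summed over libraries, the depth-scaled ratio of Batf3-/- to WT was 0.716 for Eomes (95% counting interval 0.315 to 1.57) and 0.895 for Prdm1 (0.347 to 2.26). No difference was detectable in these sums at this depth. Within replicates 1 and 2 the ratios went opposite ways, at 1.35 and 0.148 for Eomes and 1.28 and 0.665 for Prdm1. The Eomes interval within replicate 2 (0.00346 to 0.999) just excluded no change but rests on 1 count in the Batf3-/- library. Hlx, a homeobox gene of TH1 cells, had 2 and 0 counts in Batf3-/- libraries and 0 and 4 in WT libraries. A count of 0 allows up to 0.194 CPM in Batf3-/- replicate 2 and 0.129 CPM in WT replicate 1, at a floor of 3 counts. Hlx (chromosome 1, 184727140 to 184732619) lies 6.37 Mb from Batf3. Within 25 Mb of Batf3, 7 of 145 tested genes passed the test (4.83%), against 0.132% of all tested genes. The counts of Hlx itself were too few to say whether it differed.

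Ratios inside a library do not depend on scaling between libraries. Per kb of exon, Gata3 stood 49.6- and 39.0-fold above Tbx21 in Batf3-/- replicates 1 and 2, and 56.5- and 17.4-fold above it in WT replicates 1 and 2. With the median coding length the same folds were 101 and 79.9 in Batf3-/- libraries and 116 and 35.5 in WT libraries. Gata3 thus far exceeded Tbx21 in every library with either length, and least in WT replicate 2. Relative to Foxp3, the regulatory T cell factor, the Gata3 level was 10.6- and 12.4-fold in Batf3-/- libraries and 21.3- and 14.6-fold in WT libraries. This ratio was lower in both Batf3-/- libraries than in either WT library; Foxp3 had 29.2 and 21.0 CPM in Batf3-/- libraries and 9.81 and 17.7 CPM in WT libraries and did not pass the test (log2 fold change 0.87, adjusted p = 0.593, edgeR). Relative to Bcl6, Gata3 was 321- and 346-fold in Batf3-/- libraries and 210- and 182-fold in WT libraries, on the 17 to 57 counts that Bcl6 had per library. Epas1 stood far below Hif1a, its better known paralog, at 0.0184 and 0.0145 of the Hif1a level per kb in Batf3-/- libraries and 0.00898 and 0.0127 in WT libraries.

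**Figure D4:**
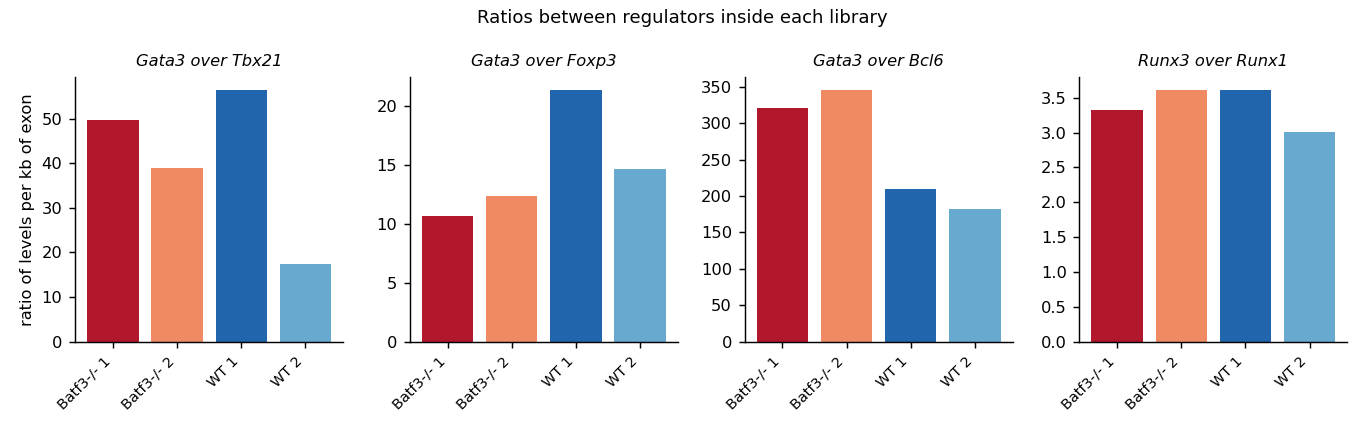
Ratio of levels per kb of exon between pairs of regulator genes inside each library, Batf3-/- left of WT. Gata3 exceeds Tbx21 between 17.4- and 56.5-fold in all 4 libraries, and the Gata3 to Foxp3 ratio is 10.6 and 12.4 in Batf3-/- libraries against 21.3 and 14.6 in WT libraries.

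The programmes that these factors govern were read from 8 gene lists, with the 10 regulators left out of the counts. In edgeR 0 of their 122 tested genes passed, against 0.132% of all tested genes, and DESeq2 and limma-voom also called 0. An unadjusted p under 0.05, which 4.8% of all tested genes had, was reached by 4 of 15 RUNX partners and targets (26.7%), 3 of 13 BLIMP-1 genes (23.1%), 4 of 27 other lineage regulators (14.8%) and 2 of 15 GATA3 and TH2 genes (13.3%). It was reached by 1 of 17 genes in each of the TH1 and hypoxia lists (5.88%), and by 0 of 20 follicular helper and 0 of 15 NFIL3-linked genes. These shares are not independent, because the lists share genes. Foxp3 and Zbtb7b were counted both among the RUNX partners and targets and among the other lineage regulators. Klf2 was counted both among the BLIMP-1 genes and among the other lineage regulators. The lists were chosen with earlier results known, and no test was made of these shares. Of 15 tested GATA3 and TH2 genes, 9 had a positive log2 fold change (median 0.15). The chemokine receptor gene Ccr8 had the smallest p of this list, at 226 and 206 CPM in Batf3-/- libraries and 125 and 184 CPM in WT libraries (log2 fold change 0.48, SE 0.207). Next came Gfi1, a transcriptional repressor that promotes TH2 cell growth, at 109 and 83.5 CPM in Batf3-/- libraries and 62.7 and 77.7 CPM in WT libraries (log2 fold change 0.46, SE 0.199). Zfpm1, whose product FOG-1 binds GATA factors, had a log2 fold change of 0.30 (SE 0.228). The log2 ratios within replicates 1 and 2 were 0.86 and 0.16 for Ccr8 and 0.80 and 0.10 for Gfi1, against medians of 0.25 and 0.01 over the list.

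Among 17 tested TH1 and cytotoxic genes, 11 had a positive log2 fold change (median 0.22). The proprotein convertase gene Furin, induced by IL-12 and STAT4, had 775 and 840 CPM in Batf3-/- libraries, against 457 and 712 CPM in WT libraries (log2 fold change 0.47, SE 0.219). Il12rb1, a subunit of the IL-12 receptor, had a log2 fold change of 0.41 (SE 0.203). Of 20 tested follicular helper genes, 8 had a positive value (median -0.05), and Cd200 and Btla, which encode surface proteins of follicular helper cells, stood at -0.36 (SE 0.191) and -0.40 (SE 0.214). For 13 tested genes linked to BLIMP-1, 8 were positive (median 0.14), with the inhibitory receptor gene Lag3 at 0.43 (SE 0.184) and the kinase gene Pim1 at 0.41 (SE 0.189).

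Of 15 tested RUNX partners and targets, 10 were positive (median 0.15). Foxp3 had the smallest p there, and Aes, a short Groucho-family corepressor gene, stood at 0.49 (SE 0.20). Among 15 tested NFIL3-linked and clock genes, 9 were positive (median 0.16), with the circadian genes Clock at -0.45 (SE 0.230) and Cry2 at 0.34 (SE 0.256). The hypoxia pathway list had 8 of 17 positive (median -0.04). In it the prolyl hydroxylase gene Egln2 stood at 0.42 (SE 0.201) and Bnip3, a hypoxia-induced mitophagy gene, at -0.39 (SE 0.235). Hif1a stood at -0.19 (SE 0.197), and Arnt, the partner shared by HIF-1 alpha and HIF-2 alpha, at -0.04 (SE 0.188). Of 27 other T cell lineage regulators, 11 were positive (median -0.05). Foxp3 again had the smallest p there, followed by the ETS factor gene Erg at -0.87 (SE 0.289). Adjusted p-values of the tested genes in these lists ranged upwards from 0.593 in edgeR.

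**Figure D5:**
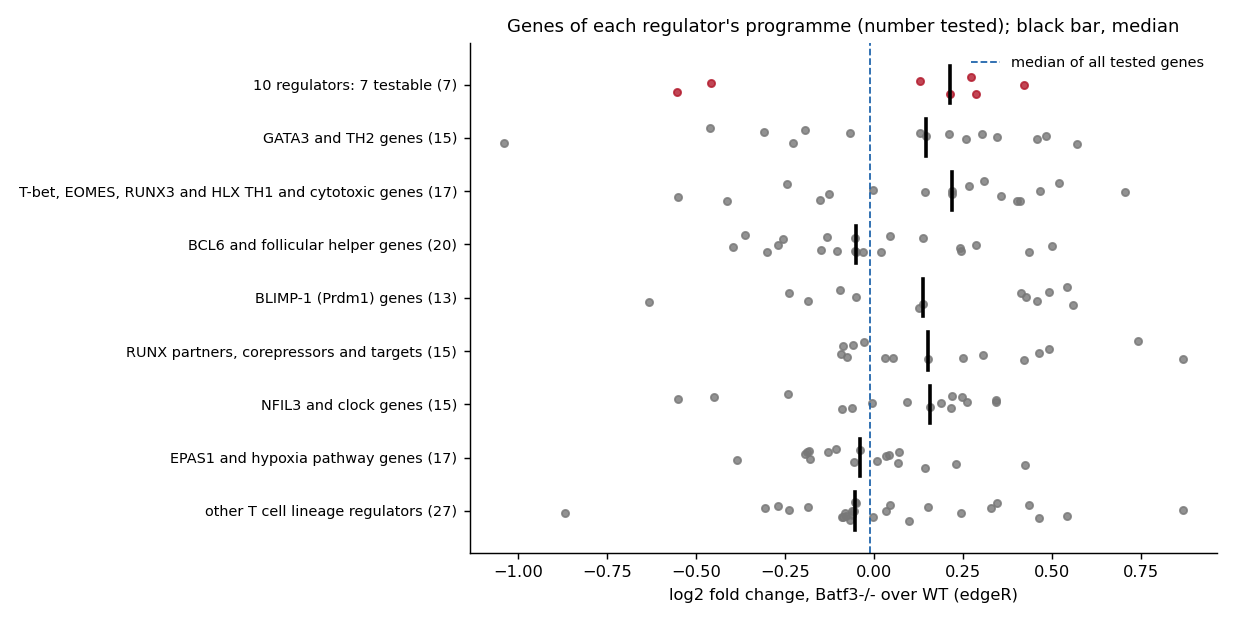
Log2 fold changes (Batf3-/- over WT, edgeR) of the 7 testable regulators and of the tested genes in 8 programme lists, 1 dot per gene, with black bars at the medians and a dashed line at -0.01, the median of all tested genes. List medians lie between -0.05 and 0.22, and no dot passed the test.

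Genes varying alike were sought for the 3 testable regulators with the largest range over the 4 libraries: Tbx21 (1.99 on the log2 scale), Bcl6 (0.91) and Epas1 (0.68). Likeness was the root mean square difference of centred log2 CPM, over 4 libraries and 7424 genes averaging 4 or more in log2 CPM. Tmem176b (0.32) and Htr1b (0.35) were nearest to Tbx21. Nearest to Bcl6 were Tgtp1 (0.02) and Il9 (0.08), and Il9 stood at 932 and 772 CPM in Batf3-/- libraries and 978 and 1559 CPM in WT libraries. Ap1s1 and Cuedc1 (0.02 each) were nearest to Epas1. Among the regulators themselves, Gata3 and Epas1 were the most alike pair (0.07), and Tbx21 and Nfil3 the least alike (0.75). With 4 libraries many genes share a pattern, and these values are descriptions only.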

How the data were processed

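Poly(A) RNA libraries of 4 samples (stranded kit, single-end reads, per the labels' protocols) were analysed from the deposited table. The authors made expected counts per gene with STAR 2.5.0 and RSEM 1.2.25 on GRCm38, per the submitters' processing notes; such estimated counts divide reads shared between genes. The annotation release is not given in the sources used here, nor is the strand setting. The 92 spike-in entries, all at 0, were left out. Counts were rounded and tested with edgeR 4.0.16 in R 4.3.3: filterByExpr, TMM, robust dispersions, glmQLFit and glmQLFTest on genotype alone, two-sided, Benjamini-Hochberg over 12135 genes at 0.05, which was also tested on simulated data. Totals per library ranged from 15624874 to 31098059, so 3 counts correspond to 0.0944 to 0.194 CPM. Standard errors are the log2 fold change over the root of the F statistic. Positions and lengths came from GENCODE M21 (GRCm38), matched on identifiers without version for 25251 of 25509 genes. The 95% counting intervals are exact (Poisson, or conditional binomial for ratios) and cover counting error only. Named were Batf3, the 10 genes, partners, and from each list the genes past the threshold or, with none, the 2 with the smallest p. Ifng, Cxcr3, Ccl5, Nkg7, Gzmb, Fasl, Cd79b, Kit, Zbtb7b, Klf2 and the genes overlapping Gata3 were added after their values were seen. Genes, lists and tests were chosen with earlier results of these data known. Alternatives were DESeq2 1.42.0, limma-voom (limma 3.58.1), other scalings, filters and lengths, GC correction, the replicate block and leaving out each library.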

Additional observations from a re-analysis of the deposited data

How the results depend on the processing

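Of 98 refits of the 7 testable genes (14 settings each), 95 kept the direction and stayed on the same side of the threshold. Tbx21 passed without WT replicate 1 (log2 fold change -1.21) and reversed without WT replicate 2 (0.81), and Runx1 reversed without WT replicate 1 (-0.056, and 0.35 without WT replicate 2); the cause was not tested. The number of the 10 genes past the threshold was 0 under all other settings and 0 to 1 when single libraries were left out. GC correction took the log2 fold change of Runx3 to 0.04, of Nfil3 to 0.15, of Runx1 to 0.21 and of Tbx21 to -0.80. For Tbx21 the decrease was smaller with the replicate block (-0.25) and with limma-voom (-0.26) than in the main fit (-0.55). Over all genes the 10 higher and 6 lower calls became 21 higher with the DESeq2 Wald test, and 10 to 382 higher and 8 to 262 lower when single libraries were left out, most without WT replicate 2. Under a replicate block they were 81 and 31, and under the replicate block and GC correction 53 and 33, in fits with 1 residual degree of freedom and infinite median prior degrees of freedom; 0 of the 10 genes passed in either. The replicate numbers were not taken as a pairing in the main fit. The deviations of same-numbered libraries correlated at 0.11 across genes, but a correlation from 2 pairs cannot exclude a pairing. Same-numbered libraries share a title prefix and were alike in Xist, so the replicate block is given as an alternative. Depth limits Bcl6, Eomes, Prdm1 and Hlx, whose counts per library were 57 or fewer.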
